A study of Saccharomyces cerevisiae with 8 samples.

Results

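The DMSO libraries are the solvent controls of a set of yeast cultures, and they give the transcriptome of log-phase Saccharomyces cerevisiae growing on galactose. They were taken by their labels, 2 libraries of the 8 in the series. The labels name the strain W303 carrying deletions of PDR1 and PDR3 for every culture of the series, the DMSO cultures included. Cultures grew in CSM-galactose, a synthetic medium with galactose as the sugar, and were kept with DMSO for 6 h at 30°C before hot acid phenol extraction of total RNA. The other groups, also 2 libraries each, received CQ (clioquinol, a metal chelator) at 0.8 µM, the DHPM-thione labelled active at 20 µM or the DHPM-thione labelled inactive at 20 µM. The growth protocol instead writes mM for these concentrations and wild-type for the yeast. The micromolar unit and the deletion strain come from the sample characteristics and the design text, and are used here. PDR1 and PDR3, which encode a related pair of activators of drug-efflux pump genes, had 0 counts in both DMSO libraries and in all 6 others. DMSO replicate 1 held 19021672 counts over 6136 detected features and DMSO replicate 2 held 12839597 counts over 6067 detected features, within the series' range of 12076141 to 19021672. Levels are given as CPM, the count scaled to a common library total, and levels of different genes are compared as CPM per kilobase of coding sequence. Replicates are labelled as biological, with nothing said of separate starting colonies, so the spread between them may be partly technical.

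Galactose enters a yeast cell through the permease Gal2 and is turned into glucose 1-phosphate by the Leloir enzymes, the galactokinase Gal1, the transferase Gal7 and the epimerase-mutarotase Gal10. The activator Gal4 binds upstream of these genes, Gal80 holds it back, and Gal3 relieves Gal80 when galactose is present. Glucose represses the permease and Leloir enzyme genes, so they are nearly silent in glucose medium. The sites that Gal4 binds have the form CGGNNNNNNNNNNNCCG, with CGG and CCG separated by 11 bases of any kind.

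The regions that carry those sites are printed here because the genes beside them stood among the most abundant of the library. Sequences are from the RefSeq assembly R64, the build that corresponds to sacCer3, with each match to the Gal4 pattern in capitals and the proximal TATAAA of GAL1 in capitals in the last line.
GAL10-GAL1 intergenic region, chrII:278558-278631, plus strand: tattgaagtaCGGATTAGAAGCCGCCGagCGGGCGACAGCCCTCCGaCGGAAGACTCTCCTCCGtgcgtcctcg
GAL2 promoter, chrXII:289786-289910, plus strand: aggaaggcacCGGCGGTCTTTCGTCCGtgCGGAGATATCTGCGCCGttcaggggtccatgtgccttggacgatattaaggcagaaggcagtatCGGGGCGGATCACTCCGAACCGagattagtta
GAL7 promoter, chrII:275693-275729, minus strand: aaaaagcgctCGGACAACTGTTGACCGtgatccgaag
GAL80 promoter, chrXIII:171412-171448, plus strand: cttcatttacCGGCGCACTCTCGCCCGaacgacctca
GAL3 promoter, chrIV:463136-463172, plus strand: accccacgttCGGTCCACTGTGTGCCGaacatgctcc
GAL1 proximal promoter, chrII:278821-278920, plus strand: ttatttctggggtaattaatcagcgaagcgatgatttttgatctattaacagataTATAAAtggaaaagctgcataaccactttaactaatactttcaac
GAL10 and GAL1 are divergent neighbours that share the first region, and the 3 matches in it lie from 453 to 416 bases before the start codon of GAL1, each counted at its first base. GAL2 has 4 matches, of which the last pair overlap in 1 run of capitals.

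Galactose genes were among the most abundant messages. GAL1 had 6413 CPM in DMSO replicate 1 and 7350 CPM in DMSO replicate 2, and it ranked 4 of all features. GAL2 had 5522 and 6716 CPM, GAL10 had 5842 and 6092 CPM, and GAL7 had 3056 and 3194 CPM in the same order of libraries. These 4 genes alone took 2.08% and 2.34% of all counts. Per kilobase GAL1 reached 4336 ± 417 CPM (SD, n = 2), GAL2 3547 ± 489, GAL10 2841 ± 84.4 and GAL7 2838 ± 88.8, against a median of 41.3 over the 6004 protein-coding genes. The enzyme genes GAL10 and GAL7 lay within their replicate spread of each other, and GAL1 and GAL2 stood above both in each library.

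The regulators were far below the enzymes they control. GAL80, the inhibitor, had 410 ± 23.8 CPM per kilobase, and GAL3, the sensor, had 140 ± 0.232 (SD, n = 2). GAL4, the activator, had 129 and 126 counts, or 3.14 ± 0.81 CPM per kilobase, and ranked 5281 among the protein-coding genes. GCY1, a galactose-induced aldo-keto reductase gene, reached 1575 ± 278 CPM per kilobase, and LAP3, a cysteine protease gene under Gal4, reached 340 ± 0.248. The phosphoglucomutase genes PGM2 and PGM1, whose products feed glucose 1-phosphate into glycolysis, had 99.4 ± 22.9 and 47.8 ± 2.23 CPM per kilobase. PCL10 (a cyclin), GAL11 (a Mediator subunit) and MTH1 (a regulator of hexose transport) had 52.1, 43.6 and 32.1, near the median gene.

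Matches to the Gal4 pattern were rare in the genome. In the 500 bases before the start codon, with the pattern read on both strands, 177 of 5985 nuclear genes had a match, or 2.96%. Those 177 genes had a median of 44.1 CPM per kilobase, against 41.6 for all 5985, and 8 of them were among the 100 highest genes per kilobase. Only 7 genes had 2 or more matches, namely GAL1, GAL10, GAL2, RPL34B, SEG1, TVS1 and HXT3. SEG1 (26.8 CPM per kilobase), TVS1 (16.9) and HXT3 (2.54) lay below the median gene, while RPL34B, a ribosomal protein gene, had 2281. Among the 14 galactose genes listed, PGM2, PGM1 and GAL11 had no match in this window. A match describes the letters and not binding.

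**Figure D1:**
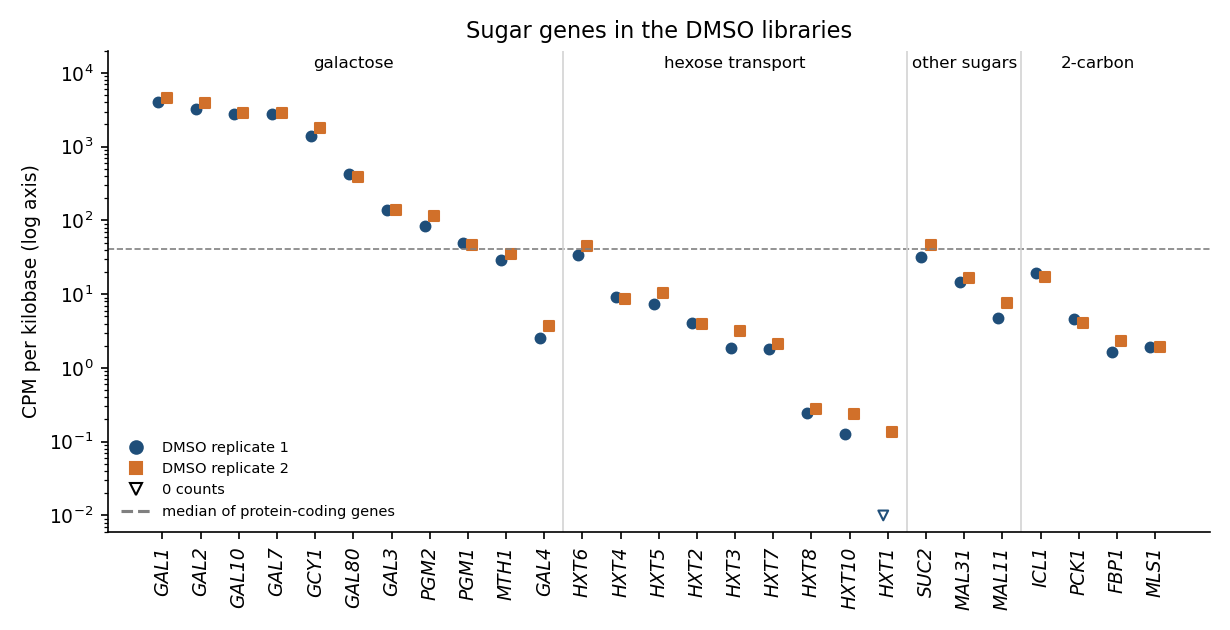
CPM per kilobase (log axis) of sugar genes in DMSO replicate 1 (circles) and DMSO replicate 2 (squares), with an open triangle for a library at 0 counts and a dashed line at the median of protein-coding genes (41.3). The enzyme and permease genes of galactose use lie at 2775 to 4631, and HXT6 (33.9 and 44.6) is the only hexose transporter gene shown with a library above the dashed line.

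Hexose transporter genes and the genes listed for other sugars had mean levels below that of the median protein-coding gene (41.3 CPM per kilobase). HXT6 and SUC2 came close to it. The 16 hexose transporter genes of the HXT family together took 0.0101% and 0.0127% of counts, and 3 of them (HXT15, HXT16 and HXT17) had no count. Only 5.80% and 6.04% of the 50-base windows of HXT15 and HXT16 were found once in the genome, and HXT17 lies in the silent stretch of chromosome XIV, so no level is read from these zeros. HXT6, a high-affinity glucose transporter, had 39.3 CPM per kilobase, but it shares nearly all its sequence with HXT7 (1.94). Only 4.93% of the 50-base windows in either coding sequence were found once in the genome, so the split between these copies is uncertain. HXT4, HXT5, HXT2 and HXT3 had 8.89, 8.88, 3.97 and 2.54 CPM per kilobase, and the low-affinity glucose transporter gene HXT1 had 0.0682. SUC2, the invertase gene, had 39.5 and the maltose permease gene MAL31 had 15.7. Of the gluconeogenic and glyoxylate genes, ICL1 (isocitrate lyase) had 18.2, PCK1 and FBP1 had 4.34 and 1.98, and MLS1 (malate synthase) had 1.92. MDH2, the cytosolic malate dehydrogenase, stood above the rest of that list with 256 CPM per kilobase.

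Counts were concentrated in few genes. The 10 most abundant features took 8.25% and 7.90% of counts, the 100 most abundant 29.4% and 28.8%, and the 1000 most abundant 72.5% and 71.4%. In DMSO replicate 1, 334 features held 50% of the counts, and in DMSO replicate 2 it was 355. By level, 170 features at 1000 CPM or more held 37.2% of counts and 1828 features between 100 and 1000 CPM held 49.2%. Another 2912 features between 10 and 100 CPM held 13.2%, and the 656 between 1 and 10 CPM held 0.308%. Protein-coding genes took 99.9% of counts.

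YEF3, which encodes translation elongation factor 3, was first with 17581 and 14891 CPM. PMA1, the proton pump of the plasma membrane, had 14644 and 12266 CPM, and CDC19, the pyruvate kinase gene, had 9496 and 8821 CPM. After GAL1, TDH3 (glyceraldehyde-3-phosphate dehydrogenase), GAL2 and GAL10 came PSA1 with 5634 and 5916 CPM, which makes GDP-mannose for glycoproteins. OLE1 (the fatty acid desaturase) had 5739 and 5120 CPM, and GAS1 (a cell wall glucan remodeller) had 5478 and 4991 CPM. The other 10 of the 20 most abundant features, by CPM, were PDC1, RPL3, FAS1, ACC1, ERG11, FBA1, RPS31, ENO2, ILV5 and GPM1.

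Per kilobase the order favoured short genes. RPS31, which encodes a ubiquitin fused to a ribosomal protein, led with 9090 ± 17.8 CPM per kilobase (SD, n = 2). HYP2, the translation factor eIF5A, followed with 7069 ± 86.9, and CCW12, a cell wall mannoprotein, with 6856 ± 558. FAS1 and ACC1, which make fatty acids and have coding sequences of 6156 and 6702 bases, ranked 13 and 14 by CPM and 241 and 265 per kilobase. TDH3, CDC19, RPS12, HHF1 (histone H4), PSA1, RPS20 and YEF3 completed the 10 highest genes per kilobase.

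Protein synthesis was the largest of the functions listed. The 138 cytosolic ribosomal protein genes took 11.7% and 11.1% of counts, with none at 0 and 128 of 138 at 100 CPM or more. Their median was 1339 CPM per kilobase, and 51 of them were among the 100 highest genes per kilobase. With elongation factors (2.50% and 2.20%) and initiation factors (1.97% and 1.94%) the 171 genes took 16.2% and 15.3%. Among initiation factors PAB1, the poly(A)-binding protein gene, had 2015 CPM per kilobase and CDC33, the cap-binding protein eIF4E, had 1872. Ribosome biogenesis genes took a further 3.24% and 3.03%, led by the RNA helicase gene DBP2 (1586) and the nucleolar protein genes NOP58 (1476) and NOP1 (1296).

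Many ribosomal proteins have an A and a B gene, and the members of a pair often differed in level. Of 59 pairs, A was higher in 30 and B in 29, the order was the same in both libraries for 56, and the median fold between the members was 1.80. Among the 51 pairs whose copies were both at least 50% unique, 20 differed by 2-fold or more and 5 by more than 5-fold. RPL15A had 2023 and 1958 CPM per kilobase, against 32.2 and 36.3 for RPL15B, a 58.2-fold gap. RPL16B had 4489 and 4470, against 917 and 699 for RPL16A, and RPS9B had 3702 and 3483, against 563 and 640 for RPS9A. RPL22A had 2057 and 2009, against 373 and 304 for RPL22B. Pairs with little unique sequence cannot be read this way.

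Some translation factors are also encoded by near-identical copies. TEF1 and TEF2, which encode the same elongation factor eEF1A, had 79.1 and 206 CPM per kilobase, and 7.53% of their 50-base windows were unique. EFT1 and EFT2, which both encode eEF2, had 40.03 and 85.1 with 8.06% unique. TIF1 and TIF2, which both encode eIF4A, had 322 and 80.9 with 15.1% unique. How reads that align to several places were counted is not given in the sources at hand, and these levels are uncertain.

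**Figure D2:**
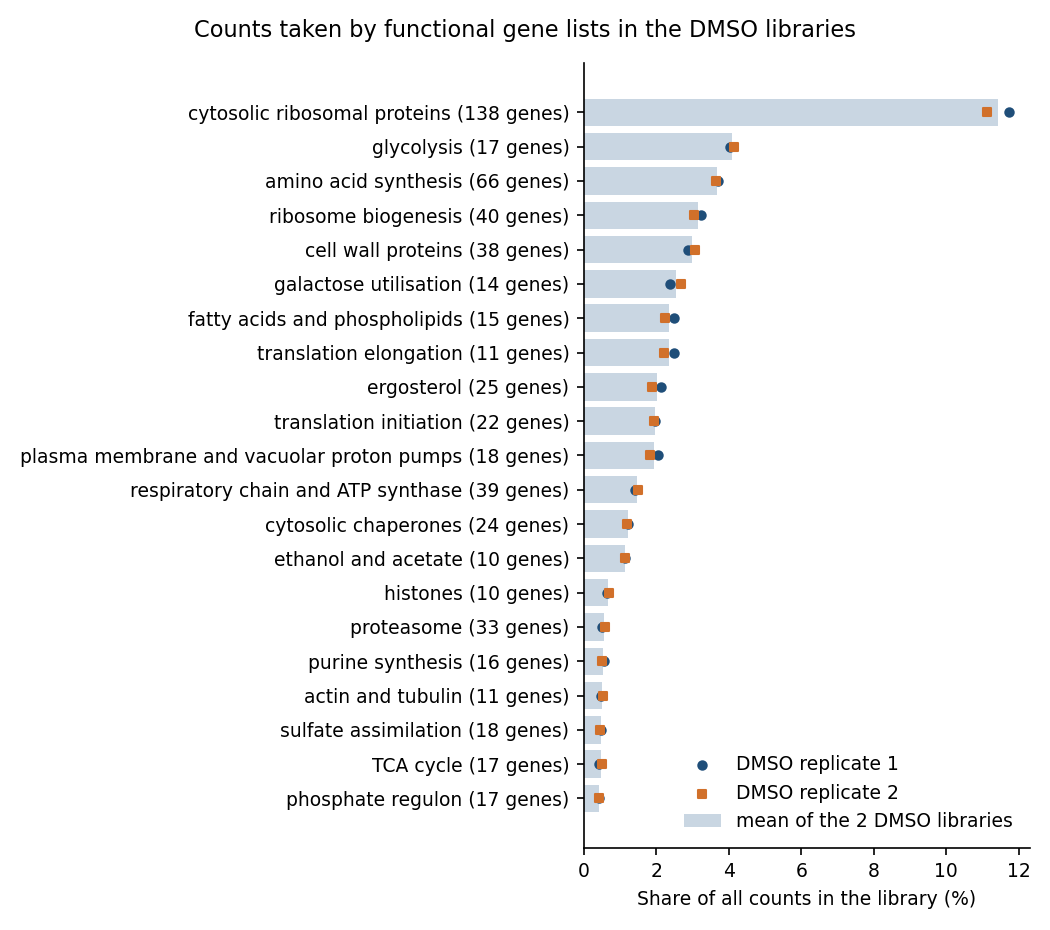
Share of all counts (%) of each functional gene list in DMSO replicate 1 (circles), DMSO replicate 2 (squares) and their mean (bars), for lists at 0.4% or more. Ribosomal proteins lead at 11.7% and 11.1%, glycolysis follows at 4.03% and 4.13%, and galactose use takes 2.39% and 2.68%.

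Glycolysis, which receives the sugar after the Leloir steps, took 4.03% and 4.13% of counts in 17 genes. Per kilobase TDH3 had 6438 ± 631 CPM, CDC19 6093 ± 317, GPM1 (phosphoglycerate mutase) 5084 ± 158, TPI1 (triose phosphate isomerase) 4276 ± 101 and FBA1 (aldolase) 4057 ± 305 (SD, n = 2). The upper steps were lower, with 595 for the hexokinase gene HXK2, 585 for PGI1 and 466 and 358 for the phosphofructokinase genes PFK1 and PFK2. HXK1 had 58.6, and PYK2, the second pyruvate kinase, had 15.4. Fermentation to ethanol was present at the same order of level, with ADH1 (alcohol dehydrogenase) at 3430 and PDC1 (pyruvate decarboxylase) at 3072. GPP1, a glycerol phosphatase gene, had 2872 CPM per kilobase.

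Cell wall, proton pump and lipid genes each took several percent of counts. Cell wall protein genes took 2.88% and 3.06% of counts, with CCW12, CWP2 (5087 ± 1253 CPM per kilobase) and GAS1 (3116 ± 205) as the highest, and the flocculin genes FLO1 (0.612) and FLO9 (0.474) as the lowest. CWP2 differed between the libraries, at 4200 in DMSO replicate 1 and 5973 in DMSO replicate 2. Proton pump genes took 2.04% and 1.81%, most of it PMA1, whose near relative PMA2 had 9.75 CPM per kilobase. Fatty acid and phospholipid genes took 2.47% and 2.25%, led by OLE1 at 3542. Ergosterol genes took 2.13% and 1.88%, led by ERG11, the lanosterol demethylase gene, at 2831, while HMG2 had 36.8 against a list median of 352.

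Respiratory and TCA cycle genes had medians above that of all protein-coding genes (41.3 CPM per kilobase). The 39 respiratory genes listed, for electron transport and the ATP synthase, took 1.42% and 1.49% of counts with a median of 412 CPM per kilobase, and the ATP synthase subunits ATP1 (1838) and ATP2 (1435) led. TCA cycle genes took 0.419% and 0.497% with a median of 203, led by the succinate dehydrogenase subunits SDH2 (592) and SDH1 (366), and CIT3 was lowest at 4.67. Amino acid synthesis took 3.71% and 3.64%, led by ILV5 (3388) and SAM2 (3104), with all 66 genes detected and the lowest at 35.4. Phosphate genes took 0.416% and 0.427%, led by PHO84, the high-affinity phosphate transporter, at 1162.

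General stress genes had a median near that of all protein-coding genes, and cytosolic chaperone genes a higher one. Cytosolic chaperone genes took 1.21% and 1.19% of counts with a median of 192 CPM per kilobase over 24 genes, led by the ribosome-bound SSB1 (997), and the small heat shock protein genes HSP26 (15.9) and HSP42 (10.8) were the lowest. The general stress genes took 0.177% and 0.199% with a median of 40.6, from HOR7 (1917) to ALD3 (3.44). Histone genes took 0.622% and 0.697%, with the H4 genes HHF1 at 5878 and HHF2 at 2094. The proteasome took 0.510% and 0.567%, with subunits up to 319 (RPN8) and its activator RPN4 lowest at 39.3. Actin and tubulin genes took 0.469% and 0.523%, led by ACT1 at 1673, and the antioxidant genes took 0.270% and 0.297%, led by the peroxiredoxin gene TSA1 at 1158. ER folding genes took 0.383% and 0.378%, led by HAC1 (987) and PDI1 (926).

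Small-molecule pathways and the cell cycle held a wide range. Purine genes took 0.552% and 0.503%, led by GUA1 at 595, and sulfate assimilation genes took 0.465% and 0.454%, from CYS4 (994) down to the sulfate permease genes SUL2 (1.86) and SUL1 (0.344). Thiamine genes took 0.0618% and 0.0635%, led by the transporter THI7 at 153, with the near-identical copies THI13 and THI5 lowest at 0.205 and 0.166. Peroxisome and fatty acid oxidation genes took 0.0185% and 0.0198%, led by PEX3 at 43.2, with POX1 (1.02) and POT1 (0.584) lowest. Glycerol genes took 0.330% and 0.349%, and the mitochondrial carriers took 0.345% and 0.394%, led by the porin POR1 at 1642. Cell cycle genes took 0.306% and 0.303%, led by the sliding clamp POL30 at 446 and with the S-phase cyclin CLB6 lowest at 5.13. Glucose repression regulators took 0.191% and 0.199%, led by the corepressor TUP1 at 364, and the repressor genes MIG3 and MIG2 were lowest at 1.51 and 0.682. Copper and zinc genes took 0.157% in each library, led by SOD1 at 517.

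Codon choice set the galactose genes apart from the other abundant genes. In yeast, genes of high expression favour a small set of codons, here 23 preferred codons, and the share of a gene's codons in that set had a Spearman correlation of 0.515 with its CPM per kilobase over 5985 nuclear genes. That value is across genes of the same libraries, which are not independent replicates. The 100 highest genes per kilobase had a median of 89.5% preferred codons, against 46.0% over all 5985. Only 6 of the 100 were under 60%, namely GAL10 (51.5%), GAL7 (51.6%), GAL1 (53.6%), GCN4 (56.4%), ITR1 (58.1%) and MF(ALPHA)1 (59.9%), and GAL2 followed YHB1 (60.5%) closely with 60.6%. GCN4 encodes the activator of amino acid synthesis genes, ITR1 the inositol transporter, MF(ALPHA)1 the alpha-factor pheromone and YHB1 a nitric oxide dioxygenase. With the genes ranked from high to low level and cut into 10 equal bins, the median share was 67.5% in the top bin and 51.9% in the next, and it lay between 43.6% and 48.7% in the other 8.

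**Figure D3:**
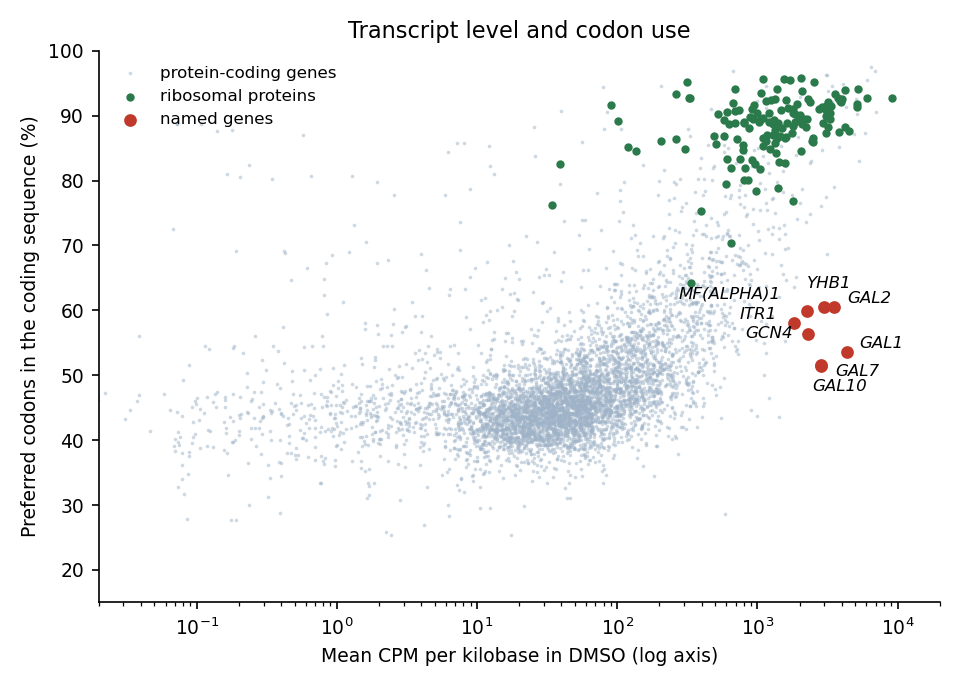
Share of preferred codons (%) against mean CPM per kilobase in the DMSO libraries (log axis) for each protein-coding gene, with ribosomal protein genes in green and named genes in red. The red genes GAL10, GAL7 and GAL1 lie at 51.5% to 53.6%, below the ribosomal protein genes of like level.

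TATA elements differed between the abundant classes. The letters TATAAA, on either strand in the 250 bases before the start codon, were in 43.4% of 5985 nuclear genes and in 57 of the 100 most abundant genes by CPM, with a 95% Wilson interval of 47.2% to 66.3%. Among those 100, 52 of the 79 that were not ribosomal protein genes had it, or 65.8%, against 5 of the 21 ribosomal protein genes. Over all 138 ribosomal protein genes the share was 23.2%. Among the 100 highest per kilobase, 51 of which were ribosomal protein genes, the share was 45.0%. GAL1, GAL2, GAL7 and GCY1 had the letters in that window and GAL10, GAL80, GAL3 and GAL4 did not. No match says only that these letters are not in the window.

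Genes specific to alpha cells were expressed and those specific to a cells were low or silent. All 4 alpha-specific genes were detected, with MF(ALPHA)1 at 1275 and 991 CPM, STE3 (the a-factor receptor) at 373 and 360, SAG1 (alpha-agglutinin) at 136 and 137 and MF(ALPHA)2 at 11.2 and 10.5. Of the 7 a-specific genes, MFA2 and AGA2 had no count, MFA1 had 1 and 0 counts, and ASG7 had 0.104 CPM per kilobase. STE6, STE2 and BAR1 had 4.89, 3.8 and 1.10 CPM per kilobase. In sum the a-specific genes took 0.00260% and 0.00258% of counts and the alpha-specific genes 0.180% and 0.150%. Haploid genes were all detected, from STE18 (48.0 CPM per kilobase) to RME1 (200), while the 44 meiosis and sporulation genes had a median of 1.90, and 12 of them were under 1 CPM. The labels used here give no mating type.

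Most genes listed as Pdr1 and Pdr3 targets were detected. PDR5, the main drug-efflux pump, had 128 and 137 CPM, SNQ2 had 249 and 280, and YOR1 had 138 and 151. PDR12, a weak-acid pump gene known mainly as a target of War1, had 880 and 596 CPM, and PDR16, a lipid transfer protein gene, had 177 CPM per kilobase. ICT1 and TPO1 had 138 and 24.4 CPM per kilobase, PDR10 and PDR15 had 7.22 and 3.78, and RSB1, a sphingoid base translocator gene, had 0.257. No culture with PDR1 and PDR3 intact is in the series, so these levels have no comparison. W303 usually carries mutant alleles of several marker genes, which can still be transcribed. Per kilobase those genes ranged from TRP1 (27.0) and HIS3 (31.8) through CAN1 (46.4), ADE2 (56.7) and LEU2 (130) to URA3 (282).

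Genes encoded by mitochondrial DNA were almost absent from the counts. The 18 features took 0.000862% and 0.000654% of counts, and COX1, a subunit of cytochrome oxidase, had the highest level at 1.14 CPM per kilobase. COB, ATP8 and the intron-encoded BI2, BI3 and BI4 had 0 counts. The nuclear partners of the same complexes, given above, had a median of 412. The library kit is named in the labels without a selection step for polyadenylated RNA, and whether the protocol set the mitochondrial level was not tested.

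Silent features numbered 922 of 7122, or 12.9%, counting those with 0 counts in both DMSO libraries. A total of 0 over both libraries allows up to 0.0942 CPM, and this limit covers counting error only. Of the 922, 725 were also at 0 in the other 6 libraries. All 23 tRNA genes in the table were silent, as were 633 of the 1077 features that RefSeq does not name. Among protein-coding genes 260 of 6004 were silent, or 4.33%, and 193 of those had no count anywhere in the series.

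The silent share was highest among protein-coding genes with little sequence of their own. Where under 10% of a gene's 50-base windows were found once in the genome, 122 of 172 genes were silent (70.9%). The share was 26 of 99 at 10% to 50%, 7 of 124 at 50% to 90%, and 105 of 5609 at 90% or more (1.87%). The metallothionein copies CUP1-1 and CUP1-2, the 4 asparaginase copies ASP3-1 to ASP3-4 in a run of 17 silent genes at chrXII:454696-489341, and 14 of 26 seripauperin (PAU and DAN) genes were at 0. No level can be given for such copies.

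Among 4490 nuclear genes of 600 bases or more that were at least 90% unique, 6 were silent, or 0.134%. They included the deleted PDR1 and PDR3. PDR18 (an ABC transporter), YNR071C and AIF1 (an apoptosis factor) lie in a run of 5 silent genes near the right end of chromosome XIV, and COS12 lies near the left end of chromosome VII. All 6 had 0 counts in every library of the series. The run from PDR18 to AIF1 spans chrXIV:765375-778738 in R64, and the single count within it, in HXT17, came from an inactive thione library. Its neighbours were expressed, with 1174 and 626 counts for COS10 on the telomere side and 122 and 84 counts for BSC5 on the other side. The table was counted on a sacCer3 build and not on the sequence of W303, and whether this stretch is present in the strain was not tested.

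Chromosome ends were quieter than the interior. Within 30 kb of an end 85 of 389 protein-coding genes were silent (21.9%, 95% Wilson interval 18% to 26.2%), against 169 of 5596 farther in (3.02%). Among genes at least 90% unique the shares were 11 of 231 (4.76%, interval 2.68% to 8.32%) and 89 of 5360 (1.66%). The 11 include PDR18, YNR071C, AIF1 and YNR075C-A at the same end of chromosome XIV and the neighbours COS12 and YGL262W on chromosome VII. The interval treats such neighbours as independent. Genes at least 90% unique had a median level of 16.6 CPM per kilobase within 30 kb and 45.3 farther in. By distance, those unique genes had a median of 4.19 within 10 kb, 15 from 10 to 20 kb, 21.1 from 20 to 30 kb and 35.3 from 30 to 40 kb. These are descriptions across genes, with no test. The COS genes of the chromosome ends showed the range, with COS10 at 49.1, COS8 at 26.8 and COS12 at 0.

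**Figure D4:**
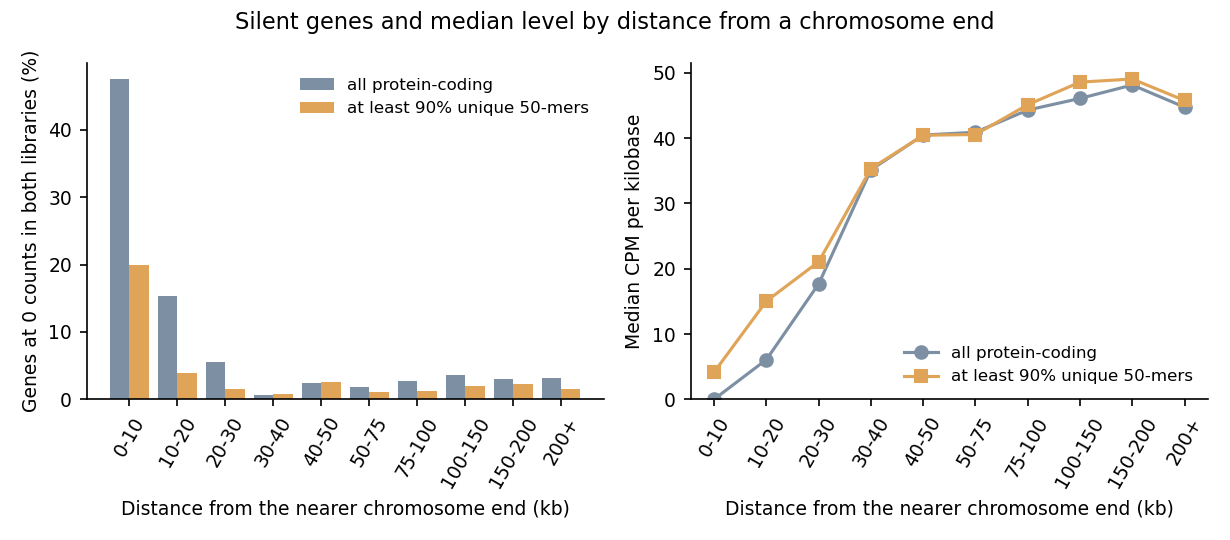
Left, the share of protein-coding genes at 0 counts in both DMSO libraries (%), and right, their median CPM per kilobase, by distance from the nearer chromosome end (kb), for all genes (grey) and for genes at least 90% unique (orange). The share is 47.5% within 10 kb for all genes and 20.0% for unique genes, and the medians level off beyond 40 kb.

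The DMSO replicates lay close together. Over 5566 features with a mean of at least 1 CPM, log2(CPM + 0.5) had a Pearson r of 0.994 and a Spearman rho of 0.994 across features. The median absolute log2 ratio was 0.142, and 13 features (0.234%) differed more than 2-fold. The other pairs of the series gave 0.260 and 173 features in CQ, 0.190 and 69 with the active thione, and 0.189 and 52 with the inactive thione. The common biological coefficient of variation was 0.0968 in DMSO, against 0.206 in CQ, 0.147 under the active thione and 0.141 under the inactive thione. A chi-square test of their counts over features gave 21.4 per degree of freedom, so the files do not hold 1 library under a pair of names. By level, the SD of the log2 ratio was 0.420 at 1 to 3 CPM, where counting error alone gives 0.411, and 0.184 at 1000 CPM or more, where counting error gives 0.0131.

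Few genes separated the libraries. HSP30, a heat-shock protein of the plasma membrane, had 190 CPM in DMSO replicate 1 and 70.1 CPM in DMSO replicate 2, a 2.70-fold difference. CIP1, a cyclin-dependent kinase inhibitor, had 46.2 and 19.4 CPM, and the short gene YER053C-A had 89.8 and 41.6 CPM. In the other direction CAT8, an activator of gluconeogenic genes, had 7.41 CPM in DMSO replicate 1 and 15.9 CPM in DMSO replicate 2. EGO4 had 20.5 and 40.4 CPM, and COX17, a copper chaperone for cytochrome oxidase, had 19 and 34 CPM. At a mean of 10 CPM or more only 4 features passed 2-fold, namely HSP30, CIP1, YER053C-A and CAT8.

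A small trend with base composition ran through the pair. DMSO replicate 2 was the higher library for 46.4% of genes in the lowest quartile of GC content, 56.7% and 63.7% in the middle quartiles and 71.8% in the highest. The median log2 ratio of replicate 2 over replicate 1 went with it, at -0.02, 0.03, 0.06 and 0.14. By coding length the share was between 50.6% and 65.6%, and the chromosome medians of the log2 ratio were between 0.03 and 0.09. The part of base composition in any single difference between the libraries was not tested.

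**Figure D5:**
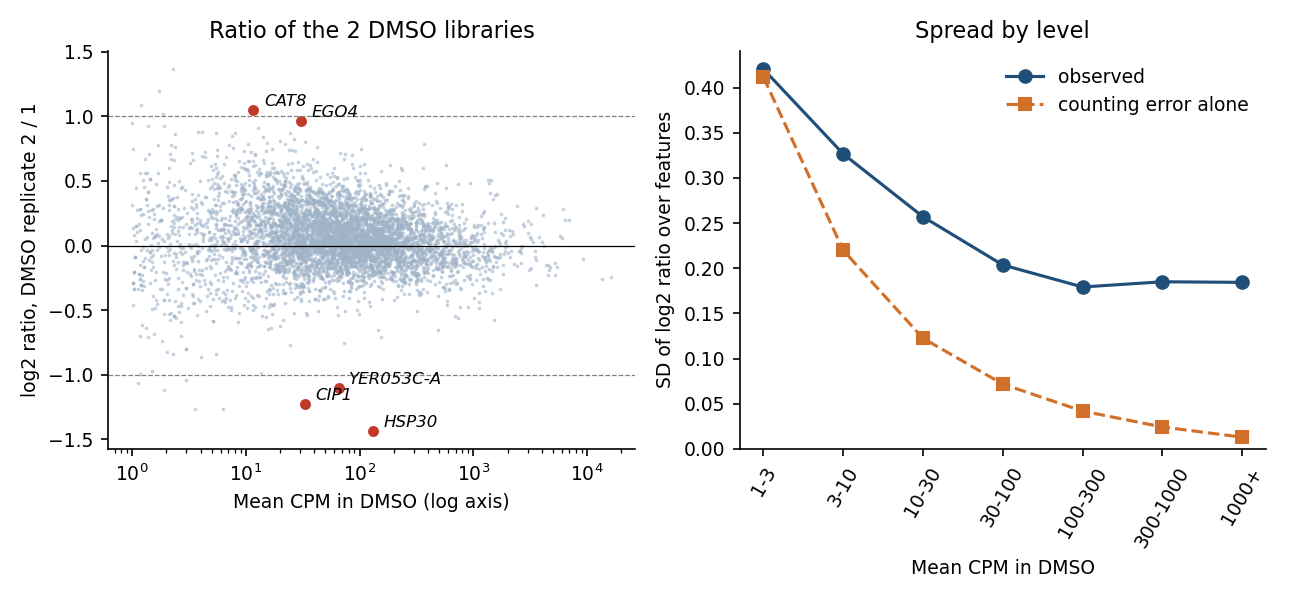
Left, log2 ratio of DMSO replicate 2 over DMSO replicate 1 against mean CPM (log axis) for 5566 features, with dashed lines at 2-fold and 5 named genes in red. Right, the SD of that ratio by level (circles) beside the SD that counting error alone gives (squares), which falls to 0.0131 at 1000 CPM or more while the observed SD is 0.184.

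Against the mean of the other 3 groups the DMSO libraries differed in a limited set of genes. Fold changes here are the log2 level in DMSO minus the mean of the other groups' log2 levels, with each group weighing the same. Such a value can differ from the log2 ratio of mean CPM. The test was edgeR's quasi-likelihood test with Benjamini-Hochberg adjustment over 5696 features. At an adjusted p under 0.05, 216 features were called, 3.79% of those tested. Of these 117 were higher in DMSO (2.05%) and 99 were lower (1.74%). Leaving out DMSO replicate 1 gave 57 calls, leaving out DMSO replicate 2 gave 71, leaving out CQ replicate 2 gave 456 and leaving out inactive thione replicate 2 gave 134. Both DMSO libraries lay above all 6 others for 295 features (5.18%) and below all 6 for 614 (10.8%). Without the CQ group 81 were called, 17 higher and 64 lower, and 52 of them were among the 216.

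No galactose, glycolytic or ribosomal gene passed edgeR's main test, fitted over all 8 libraries without a replicate block. Of 14 galactose genes 0 were called, with 2 at an unadjusted p under 0.05. Of 17 glycolytic genes 0 were called, with 1 at an unadjusted p under 0.05. Of 138 ribosomal protein genes and 40 ribosome biogenesis genes 0 were called, with 4 and 7 at an unadjusted p under 0.05. Over all 5696 features tested, 1062 were at an unadjusted p under 0.05 in the same fit. A log2 fold change below 0 was found for 2 of the 40 ribosome biogenesis genes, against 3001 of the 5696. DESeq2 called LAP3 of the galactose genes lower and NOP56 of the ribosome biogenesis genes higher, and no gene of the other lists. With a term for replicate number, edgeR called the galactose genes PGM2 and LAP3 and the glycolytic genes GLK1 and HXK1 lower. That fit called UTP20 and RRP5 of ribosome biogenesis higher. Without CQ replicate 1 LAP3 was called lower, and without CQ replicate 2 edgeR called 5 ribosomal protein genes, 4 higher and 1 lower. The median log2 fold change was -0.14 for galactose, -0.15 for glycolysis, 0.13 for ribosomal proteins and 0.21 for ribosome biogenesis, against -0.02 over all features tested. GAL1 had 6413 and 7350 CPM in DMSO, against 5456 and 8848 with CQ, 6777 and 9687 with the active thione and 7305 and 9079 with the inactive thione, and the groups overlapped. Its log2 fold change was -0.16 ± 0.21 (SE). A p that misses the threshold does not show equal levels. Of the 20 most abundant features by CPM, OLE1 and ERG11 were called, both higher in DMSO. OLE1 had 5739 and 5120 CPM in DMSO, against 2573 and 2215 CPM with CQ, 3422 and 2611 CPM with the active thione and 3878 and 2865 CPM with the inactive thione. ERG11 had 4745 and 4274 CPM in DMSO, against 451 and 473 CPM with CQ, 4388 and 3221 CPM with the active thione and 3252 and 2740 CPM with the inactive thione, so DMSO overlapped the active thione. Without the CQ group neither was called (edgeR adjusted p = 0.0881 for OLE1 and 0.189 for ERG11), and OLE1 also lost its call without DMSO replicate 1, DMSO replicate 2 or active thione replicate 2 (edgeR adjusted p = 0.329, 0.118 and 0.0557).

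Many respiratory genes were higher in DMSO than in the mean of the other groups, with the CQ libraries lowest. Over all features tested 2.05% were called higher, with a median log2 fold change of -0.02. The gene lists were chosen with earlier results of these data known. Of the 39 respiratory genes 21 were called higher and none lower, with a median log2 fold change of 0.93. Their summed share was 1.42% and 1.49% in DMSO, against 0.542% and 0.542% with CQ, 1.31% and 1.49% with the active thione and 1.58% and 1.72% with the inactive thione. The low libraries were thus those of CQ, DMSO overlapped the active thione, and the inactive thione libraries lay above both. QCR10, a subunit of the cytochrome bc1 complex, had 74.4 and 69.9 CPM in DMSO, against 1.55 and 4.21 CPM with CQ and 52.8 to 61.7 CPM in the thione libraries. TCA cycle genes had 6 of 17 higher, with a median of 0.32. Ergosterol genes had 10 of 25 higher, and their share was 2.13% and 1.88% in DMSO, against 0.977% and 0.910% with CQ and 1.37% to 1.95% in the thione libraries. In the fit without the CQ group, 1335 of all 5665 features tested were at an unadjusted p under 0.05, and 17 were called higher. Without the CQ group edgeR called 0 respiratory, 0 TCA cycle and 0 ergosterol genes, with 8, 5 and 12 at an unadjusted p under 0.05. Without DMSO replicate 1 the counts were 13, 4 and 3, and without DMSO replicate 2 they were 15, 3 and 6. ERG5, the C-22 desaturase gene, had 852 and 677 CPM in DMSO, against 59.6 and 78.2 CPM with CQ and 292 to 575 CPM in the thione libraries.

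The named genes higher in DMSO were chosen with both DMSO libraries above all 6 others, a condition that 5.18% of features tested met. Being high against every group is thus part of that choice. Among these genes was FMP48, a putative mitochondrial kinase gene. It had 89.5 and 74.7 CPM in DMSO, against 7.96 and 9.17 CPM with CQ, 29.5 and 27.4 CPM with the active thione and 41.2 and 36.4 CPM with the inactive thione. The difference was 1.99 ± 0.13 (SE) on the log2 scale, and the edgeR adjusted p was 8.29e-05. The other named genes higher in DMSO were YER053C-A, CYB5, SCM4, UBX6, COA2, QCR8 and COX5A besides QCR10 and ERG5, and of these 10 only FMP48 passed without the CQ group. With DMSO replicate 1 left out QCR8 and COX5A missed the threshold too (edgeR adjusted p = 0.0563 and 0.107). Of the 4 alpha-specific genes 2, SAG1 and MF(ALPHA)2, were called higher, against 2.05% of all features tested. STE3 and MF(ALPHA)1 were not called, and MF(ALPHA)2 lost its call without the CQ group (edgeR adjusted p = 0.0581). SAG1 had 136 and 137 CPM in DMSO, against 23.7 and 25 CPM with CQ and 46.5 to 75.6 CPM in the thione libraries.

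Part of the iron and phosphate lists was lower in DMSO than in the mean of the other groups. Among all features tested 99 of 5696 (1.74%) were called lower, and 64 of 5665 were without the CQ group. Of the 30 Aft1/Aft2 genes, which are switched on when iron is short, 19 were called lower, with a median log2 fold change of -1.07. Their share was 0.180% and 0.174% in DMSO, against 2.19% and 2.13% with CQ, 0.238% and 0.246% with the active thione and 0.170% and 0.172% with the inactive thione. The inactive thione libraries thus lay just below DMSO and the CQ libraries far above it. Without the CQ group 2 of 28 were called lower, and 11 and 12 of 30 without DMSO replicate 1 or DMSO replicate 2. The siderophore transporter SIT1 had 32.6 and 34.5 CPM in DMSO, against 1170 and 1559 CPM with CQ, 84.2 and 124 CPM with the active thione and 38.8 and 64.8 CPM with the inactive thione. LSO1, of the same regulon, was silent in DMSO and in the thione libraries and had 35 and 16 counts with CQ. PHO89, a phosphate transporter, had 46.4 and 39.6 CPM in DMSO, against 116 and 107 CPM with CQ, 670 and 569 CPM with the active thione and 152 and 119 CPM with the inactive thione. Of 17 phosphate genes 4 were called lower, 8 without the CQ group, 1 without either DMSO library and 2 without active thione replicate 2.

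The named genes lower in DMSO were chosen with both DMSO libraries below all 6 others, as were 10.8% of features tested. Being low against every group is thus part of that choice, and no group was tested alone. For some of these genes the other groups had levels of like order. PIR3, a cell wall protein gene, had 41.5 and 40.7 CPM in DMSO, against 94.5 and 134 CPM with CQ, 108 and 121 CPM with the active thione and 103 and 139 CPM with the inactive thione. On the log2 scale PIR3 differed by -1.47 ± 0.17 (SE), with an edgeR adjusted p of 0.00116. HXT2, a hexose transporter gene, had 6.52 and 6.39 CPM in DMSO, against 22.8 and 26 CPM with CQ, 17.5 and 24.5 CPM with the active thione and 12.8 and 16.3 CPM with the inactive thione. RTS3 had 15 and 22.5 CPM in DMSO, against 44.5 to 88.3 CPM over the other 6, and lost its call without DMSO replicate 1 (edgeR adjusted p = 0.106). ATG41, an autophagy gene, had 28.7 and 24.0 CPM in DMSO, against 45.6 to 106 CPM over the other 6, and lost its call without either DMSO library (edgeR adjusted p = 0.14 without replicate 1 and 0.197 without replicate 2). AZR1, a transporter gene, was instead set by 1 group, with 0.473 and 0.623 CPM in DMSO, against 1.66 and 2.48 CPM with CQ, 0.828 and 1.80 CPM with the active thione and 421 and 570 CPM with the inactive thione. GTO3, ENB1 and VMR1 completed the named genes lower in DMSO, each with its highest levels with CQ, and each lost its call without the CQ group (edgeR adjusted p = 0.0734, 0.0561 and 0.128).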

How the data were processed

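Raw read counts for 7122 features in 8 libraries were deposited by the authors, and the same table holds normalized values, a signal that the authors made by dividing counts by 1 size factor per library, used only to check the columns. Another 4 lines are empty. The submitters' processing notes name DESeq, HTSeq, TopHat and TopHat2 2.1.1, and the build sacCer3. The strand setting, the counting mode and the treatment of reads with several alignments are not stated in the sources at hand, and reads of overlapping or antisense features cannot be told apart. RefSeq R64 named 6045 features. Its gene models hold no untranslated regions, so lengths are coding lengths.

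CPM is counts over the library total. DMSO was set against the mean of the other 3 groups with edgeR 4.0.16 (R 4.3.3), TMM scaling, filterByExpr and 1 term per group over all 8 libraries, two-sided, with DESeq2 1.42.0 as an alternative. The common biological coefficient of variation was 0.153. On simulated counts of 5672 features that comparison recovered 93% of 2-fold and 99% of 4-fold changes and called 0.11% of unchanged features. The simulation used the fitted spread, the same mean level in the other 3 groups and no replicate effect. The real groups differed in level and spread, so these rates need not hold for them. Uniqueness is the share of a coding sequence's 50-base windows found once in R64.

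Gene lists, 45 in all, and members were chosen with earlier results of these data known. Genes named are the 20 highest by CPM and per kilobase, the highest and lowest of each list, all galactose, Pdr1/Pdr3, marker, mating-type and mitochondrial genes, the largest replicate ratios at 10 CPM or more, silent genes seen elsewhere, and up to 10 called each way with no overlap and an average log2 CPM of 3 or more. SEG1, TVS1, YHB1, ITR1, GCN4 and the ribosomal protein pairs were named after their values were seen.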

Additional observations from a re-analysis of the deposited data

How the results depend on the processing

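The 216 calls of DMSO against the other groups became 388 with DESeq2 and 81 without the CQ group, and ranged from 57 to 456 when 1 library was left out. DESeq2 size factors (214) and no filter (240) gave like counts, and 50 features were called whichever library was left out. Correlations of same-numbered deviations ran from -0.15 to 0.43, which does not settle whether replicate numbers pair the samples. The main fit left them unpaired. A fit with the replicate block called 403. These included the galactose genes PGM2 (log2 fold change -0.82, edgeR adjusted p = 0.0238) and LAP3 (-0.51, 0.0461) and the glycolytic genes GLK1 and HXK1, all lower in DMSO, and UTP20 and RRP5 of ribosome biogenesis, higher, with 0 ribosomal protein genes. Of the 20 named genes 12 lost their call without the CQ group, and some lost it when 1 DMSO library was left out. No sign changed, but these genes were chosen with no overlap between DMSO and the other libraries. That choice all but fixes the sign, so the stable sign is no test of robustness. The 922 silent features became 1529 at under 1 CPM in both libraries and 289 among features named by RefSeq. On the per-length scale the shares were 24.9% for ribosomal proteins, 1.73% for elongation, 1.59% for initiation, 3.78% for glycolysis, 0.854% for ethanol and acetate, 1.73% for galactose use, 2.77% for amino acids, 2.14% for ribosome biogenesis, 3.58% for the cell wall, 1.11% for fatty acids, 1.71% for ergosterol, 1.25% for proton pumps and 2.06% for respiration. On that scale the 10, 100 and 1000 highest genes held 6.80%, 33.8% and 77.3%. The 13 features over 2-fold between replicates became 4 at 10 CPM or more, 21 with a pseudocount of 0.1 and 7 with a pseudocount of 1. Silent shares near chromosome ends were 31.3% within 20 kb, 13.0% within 50 kb and 28.3% at under 3 counts, and 8.41% within 20 kb for unique genes. TATAAA was in 45.0% of the 100 highest genes per length. The cause of each shift was not tested. Depth limits the lowest features, where counting error is close to the spread between libraries.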
